A study of Mus musculus with 11 samples.

Results

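The interleukin 2 circuit of effector CD8+ T cells was described through 10 listed genes: the cytokine Il2, its receptor chains Il2ra, Il2rb and Il2rg, the transcription factors Stat5a and Stat5b, and the feedback inhibitors Cish, Socs1, Socs2 and Socs3. The members were taken by gene symbol, with every probe set annotated to that symbol alone. Of the 10, 9 had such probe sets, 20 in all, out of 18193 genes with 34945 single-symbol probe sets on the array, and all 9 passed the filter on low signal. Il2rg, the common gamma chain, had no such probe set and was not analysed here, and 1 further probe set, which lists Il2 together with Ntan1, was not used.

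Interleukin 2 is made by activated T cells and acts on the same and neighbouring T cells. Its receptor joins the alpha chain (Il2ra, CD25), which raises affinity, to the beta chain (Il2rb, CD122) and the common gamma chain, which carry the signal into the cell. The kinases JAK1 and JAK3 bound to those chains phosphorylate STAT5A and STAT5B, which enter the nucleus and switch on genes such as Cish and Il2ra, and CIS and the SOCS proteins then dampen the signal. In CD8+ T cells the strength of this signal is known to bear on whether effector or memory cells form.

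The pmel-1 strain carries a transgene for a T cell receptor specific for a peptide of gp100, a melanocyte protein, and it supplied all the cells. CD8+ cells were enriched as CD44- (naive) or CD44+ (central memory), grown on plate-bound CD3 and CD28 antibodies, stimulated again with hgp100 peptide on allogeneic feeders and kept for 2 weeks with 10 cetus units of interleukin 2, which every group received. The effectors then had a final 4 h CD3 and CD28 stimulation or none, which gave 3 arrays of naive-derived stimulated, 2 of naive-derived unstimulated, 3 of memory-derived stimulated and 3 of memory-derived unstimulated cells. The labels' descriptions number the arrays 1 to 3 after the prefix exp, read here as the experiment, and the titles call them biological replicates; age, sex, the number of mice per culture and the fate of the feeder cells are not given in the sources used here. Levels are log2 signals, obtained from deposited values that were inferred here to be log10, and differences are on the same log2 scale.

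The 3 memory-derived unstimulated arrays stood apart, at 40.3 to 77.4 on the first principal component (56.5% of the variance), against -37.5 to -11.6 for the other 8 arrays. The naive-derived unstimulated arrays thus lay on the side of the stimulated ones. Cd8a and Cd8b1 were high on every array, and Cd4, Ms4a1 and Cd79a lay below the filter level of 1.54 on every array. The other measured B cell markers, Pax5 (1.24 to 2.56), Cd79b (1.15 to 1.98) and Blnk (0.33 to 1.99), lay above it on 9, 6 and 1 arrays. The 3' minus 5' difference of actin, a sign of RNA quality, was 1.93 to 2.60 on naive-derived stimulated, 1.54 to 1.59 on naive-derived unstimulated, 1.43 to 1.73 on memory-derived stimulated and 0.875 to 1.17 on memory-derived unstimulated arrays. The same difference of Gapdh was -1.82 to -1.48 on naive-derived stimulated and -1.65 to -1.42 on naive-derived unstimulated arrays. It was -1.43 to -1.38 on memory-derived stimulated and -1.51 to -1.29 on memory-derived unstimulated arrays. The actin difference moved with the groups, whereas the Gapdh ranges met in part and did not follow actin's order. The part of RNA quality in the results was not tested. In bulk RNA of this kind, fewer cells of a type and less RNA per cell cannot be told apart.

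The final stimulation changed none of the 9 members past the threshold in naive-derived cells. Of the 14795 genes tested, 0.0135% passed there (0% higher, 0.0135% lower). An unadjusted p below 0.05 from limma was found there for 3 of the 9 members and for 1252 of the 14795 genes. In memory-derived cells 6 of the 9 passed (5 higher, 1 lower), where 31.6% of all genes did (14.3% higher, 17.3% lower). Between naive-derived and memory-derived cells, 7 members differed without stimulation (6 higher, 1 lower), where 25.8% of all genes passed (10.9% higher, 14.9% lower). With stimulation 2 members differed (1 higher, 1 lower), where 3.7% of all genes passed (1.69% higher, 2.01% lower). The response to stimulation itself differed between origins for 4 members, all with the lower response in naive-derived cells, where 2.71% of all genes passed (1.62% higher, 1.09% lower). The threshold was an adjusted p of 0.05 from limma's two-sided test, with Benjamini-Hochberg adjustment over all genes tested. Without memory-derived unstimulated array 3, farthest out on the first component, the member counts in these 5 comparisons were 0, 6, 6, 2 and 4. Over all 14795 genes the counts were then 0, 3576, 3099, 701 and 482. The memory-derived unstimulated arrays are shared by 3 of the comparisons, so these counts are not independent of each other. The median difference over the 9 members was 1.18 for stimulation in memory-derived cells, against 0.0025 over all genes.

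Single genes made up most of the shift in the summed myeloid, CD4 and NK cell markers. The summed linear signal of 8 of 8 myeloid and dendritic markers was 40.3 to 56.0 on naive-derived stimulated, 45.0 to 54.5 on naive-derived unstimulated, 72.0 to 82.0 on memory-derived stimulated and 90.1 to 129 on memory-derived unstimulated arrays. Itgax, an integrin gene that activated CD8+ cells can also express, made up 17.5 to 28.0, 18.4 to 27.8, 42.5 to 52.6 and 63.4 to 100.3 of these sums, and the other 7 markers summed to 22.8 to 28.0, 26.6 to 26.7, 29.4 to 29.5 and 26.6 to 34.2. The sum of 5 of 5 CD4 and regulatory T cell markers was 20.9 to 24.9, 25.4 to 26.7, 19.8 to 25.2 and 33.8 to 52.7 in the same order of groups, with Cd4 below the filter level on every array. Without Ikzf2, the other 4 summed to 15.3 to 18.7, 16.3 to 17.1, 15.1 to 18.1 and 15.9 to 16.1. The 3 measured NK cell markers of 4, some of which effector CD8+ cells also express, summed to 1261 to 1529, 1164 to 1226, 1235 to 1352 and 875 to 1080, of which all but 3.16 to 7.94 was Nkg7. The CD8 T cell list, 7 of 8 measured, summed to 3022 to 3438, 3828 to 4077, 2654 to 2744 and 3811 to 4122. Among the other myeloid markers, the log2 level of Cd14 was 2.56 to 2.90 on memory-derived and 0.96 to 2.07 on naive-derived arrays. Besides Itgax and Cd14, the ranges of the myeloid markers met between origins. Fcgr3 read 2.33 to 2.84 on memory-derived unstimulated arrays and up to 2.18 on the others. The NK cell marker Klra8 was 0.62 to 2.34 on memory-derived and 0.056 to 0.79 on naive-derived arrays. The part of these shifts in the members' differences was not tested.

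**Figure D1:**
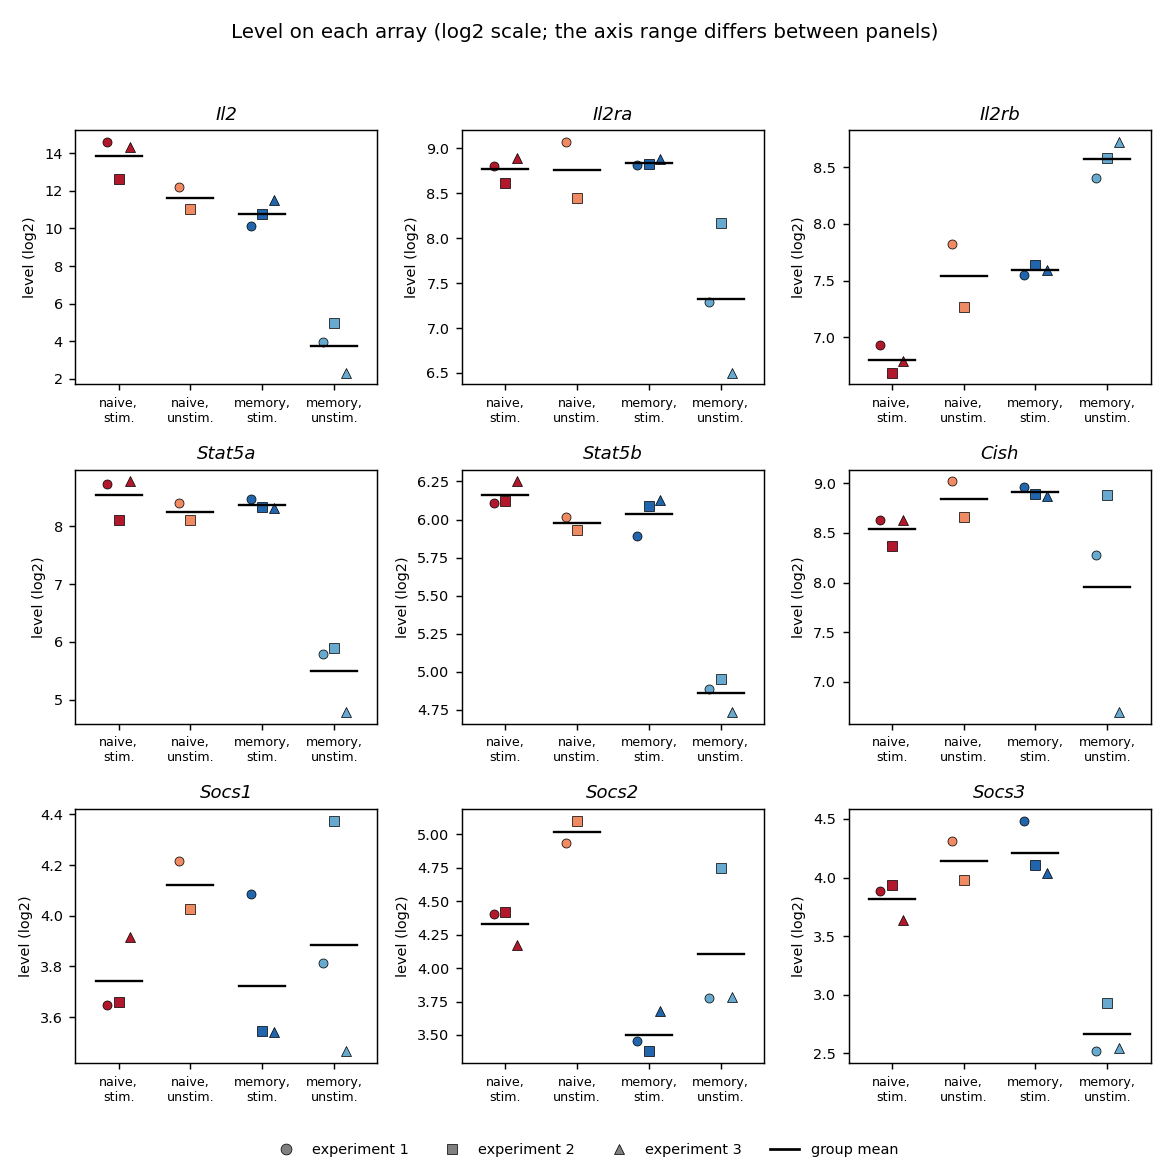
Log2 level of each of the 9 measured members on every array (1 point per array, bars at the group mean), with the groups in the order naive-derived stimulated, naive-derived unstimulated, memory-derived stimulated and memory-derived unstimulated. Il2 lay at 10.11 or above on the 8 arrays of the first 3 groups and at 4.96 or below on memory-derived unstimulated arrays, and Il2rb ran the opposite way.

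Il2, the cytokine of the circuit, separated the groups most widely (chromosome 3, 37120713 to 37125954, GRCm38.p6, minus strand). Its level was 14.60, 12.65 and 14.33 on naive-derived stimulated arrays and 12.18 and 11.04 on naive-derived unstimulated arrays. On memory-derived stimulated arrays it was 10.11, 10.76 and 11.50, and on memory-derived unstimulated arrays 3.95, 4.96 and 2.32. Only the memory-derived unstimulated arrays were low, and naive-derived cells without a final stimulation overlapped with memory-derived cells that had received one. The promoter is shown because Il2 carried the widest difference, as RefSeq's window from 250 bases before the start of the gene to 20 after it (chr3:37125935-37126204, GRCm38.p6, minus strand), with capitals on the letters GGAAA, the core that NFAT proteins bind, in either orientation.
Il2 promoter: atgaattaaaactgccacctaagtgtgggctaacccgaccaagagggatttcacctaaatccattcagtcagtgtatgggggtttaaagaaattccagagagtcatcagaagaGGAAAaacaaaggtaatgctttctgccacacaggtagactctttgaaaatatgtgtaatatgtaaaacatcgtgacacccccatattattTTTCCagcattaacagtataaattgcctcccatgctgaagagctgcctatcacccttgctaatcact
The core occurred at bases -137 to -133 on the gene's own strand and at -47 to -43 on the other. It was present in 61.3% of all 32851 promoter windows of 300 bases searched on both strands, and no reading is made from its presence.

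In memory-derived cells Il2 rose by 7.05 with stimulation (SE 0.68, limma adjusted p = 9.81e-05), and 1 of the 14795 genes had a larger absolute difference. Between naive-derived and memory-derived cells without stimulation the difference was 7.87 (SE 0.761, adjusted p = 0.000165), and 0 genes had a larger one. Among stimulated cells, Il2 was higher in the naive-derived ones by 3.07 (SE 0.68, adjusted p = 0.0314), with no overlap between the groups. That call did not hold with the experiment as a replicate block (adjusted p = 0.0647), with an intensity trend and robust prior (adjusted p = 0.0788) or with experiments 1 and 2 only (adjusted p = 0.0784). It was also lost when memory-derived stimulated array 1, 2 or 3, memory-derived unstimulated array 1, or naive-derived stimulated array 1 or 3 was left out, with differences of 2.70 to 3.42 and adjusted p of 0.0505 to 0.121. In naive-derived cells the stimulated arrays lay above the unstimulated ones by 2.25 (95% interval 0.57 to 3.93, adjusted p = 0.477), and this difference did not pass. There too, 1 of the 14795 genes had a larger absolute difference. Naive-derived unstimulated minus memory-derived stimulated cells was 0.82 (95% interval -0.86 to 2.50, adjusted p = 0.764).

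Il2ra, the alpha chain that raises the receptor's affinity (chromosome 2, 11642792 to 11693194), had a level of 8.80, 8.62 and 8.89 on naive-derived stimulated and 9.07 and 8.44 on naive-derived unstimulated arrays. It was 8.82, 8.83 and 8.88 on memory-derived stimulated and 7.29, 8.17 and 6.50 on memory-derived unstimulated arrays. The first 3 groups overlapped, and the memory-derived unstimulated arrays were lower and more widely spread. Il2ra rose by 1.52 with stimulation in memory-derived cells (SE 0.332, limma adjusted p = 0.00571) and was higher by 1.44 in naive-derived than in memory-derived unstimulated cells (SE 0.371, adjusted p = 0.0164). Without naive-derived unstimulated array 1 the origin difference was 1.12 and no longer passed (adjusted p = 0.141), nor did it with only these 2 groups fitted (adjusted p = 0.0717) or with experiments 1 and 2 only (1.03, adjusted p = 0.0606). In naive-derived cells the stimulated minus unstimulated difference was 0.013 (95% interval -0.81 to 0.83, adjusted p = 0.999).

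A second probe set of Il2ra was less decided. It read 7.72, 7.47 and 7.58 on naive-derived stimulated, 8.03 and 7.72 on naive-derived unstimulated, 7.59, 7.55 and 7.77 on memory-derived stimulated and 6.98, 7.76 and 6.02 on memory-derived unstimulated arrays. Memory-derived unstimulated array 2 lay within the stimulated range for this probe set. At the level of single probe sets its stimulation difference in memory-derived cells was 0.71 (limma adjusted p = 0.134) and its origin difference without stimulation 0.95 (adjusted p = 0.0877), so neither passed.

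Il2rb, the signalling beta chain shared with the interleukin 15 receptor (chromosome 15, 78479256 to 78511621), ran opposite to the cytokine. Its level was 6.93, 6.69 and 6.79 on naive-derived stimulated and 7.82 and 7.27 on naive-derived unstimulated arrays, and 7.55, 7.64 and 7.60 on memory-derived stimulated and 8.41, 8.58 and 8.72 on memory-derived unstimulated arrays. Stimulated cells were lower than unstimulated cells of the same origin without overlap, and naive-derived cells were lower than memory-derived cells without overlap where both were stimulated or both were not. Il2rb fell by 0.98 with stimulation in memory-derived cells (SE 0.156, limma adjusted p = 0.00112). It was lower in naive-derived than in memory-derived cells by 1.03 without stimulation, written as a difference of -1.03 (SE 0.174, adjusted p = 0.00215), and differed by -0.79 with it (SE 0.156, adjusted p = 0.0179). In naive-derived cells stimulated minus unstimulated was -0.74 (95% interval -1.12 to -0.36, adjusted p = 0.256), which did not pass, and the response did not differ by origin beyond the threshold (0.24, 95% interval -0.28 to 0.75, adjusted p = 0.59). The second probe set of Il2rb read 6.75, 6.75 and 6.67 on naive-derived stimulated, 7.53 and 7.25 on naive-derived unstimulated, 7.54, 7.41 and 7.58 on memory-derived stimulated and 8.21, 8.65 and 8.55 on memory-derived unstimulated arrays, again with naive-derived stimulated arrays lowest and memory-derived unstimulated arrays highest. The origin call in stimulated cells was lost when memory-derived stimulated array 1, 2 or 3 or naive-derived stimulated array 2 or 3 was left out, with differences of -0.81 to -0.73 and adjusted p of 0.0592 to 0.0709, and with experiments 1 and 2 only (adjusted p = 0.139).

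Stat5a and Stat5b, the transcription factors that relay the receptor's signal, lie next to each other on chromosome 11 (100859351 to 100885169 and 100780731 to 100859004), 346 bases apart and on opposite strands. Stat5a had a level of 8.74, 8.11 and 8.78 on naive-derived stimulated, 8.40 and 8.11 on naive-derived unstimulated, 8.46, 8.33 and 8.31 on memory-derived stimulated and 5.79, 5.90 and 4.79 on memory-derived unstimulated arrays. Stat5b had a level of 6.11, 6.12 and 6.25 on naive-derived stimulated, 6.02 and 5.93 on naive-derived unstimulated, 5.89, 6.09 and 6.13 on memory-derived stimulated and 4.89, 4.95 and 4.74 on memory-derived unstimulated arrays. For both genes the memory-derived unstimulated arrays lay below all 8 others, and the ranges of the other 3 groups met for Stat5a. Stat5a rose by 2.88 with stimulation in memory-derived cells (SE 0.276, limma adjusted p = 9.66e-05), a difference exceeded by 32 genes, and Stat5b rose by 1.18 (SE 0.119, adjusted p = 0.000129). Without stimulation, naive-derived cells were higher than memory-derived cells by 2.76 for Stat5a (SE 0.309, adjusted p = 0.000328) and by 1.12 for Stat5b (SE 0.133, adjusted p = 0.000405). In naive-derived cells stimulated minus unstimulated was 0.29 for Stat5a (95% interval -0.39 to 0.97) and 0.18 for Stat5b (95% interval -0.11 to 0.48), and neither passed. The second probe sets of both genes gave the same calls, with stimulation differences in memory-derived cells of 2.95 for Stat5a and 1.44 for Stat5b. All 4 probe sets carry a suffix (a_at) for sets that may match several transcripts, the 2 genes are closely related in sequence, and cross-hybridisation was not checked. Of the other STAT genes, 0 of 4 tested passed for stimulation in memory-derived cells (31.6% of all genes) or in naive-derived cells (0.0135%). None of them passed for origin without stimulation (25.8% of all genes). Stat4 was higher by 0.65 in naive-derived than in memory-derived stimulated cells (limma adjusted p = 0.0314), where 3.7% of all genes passed.

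**Figure D2:**
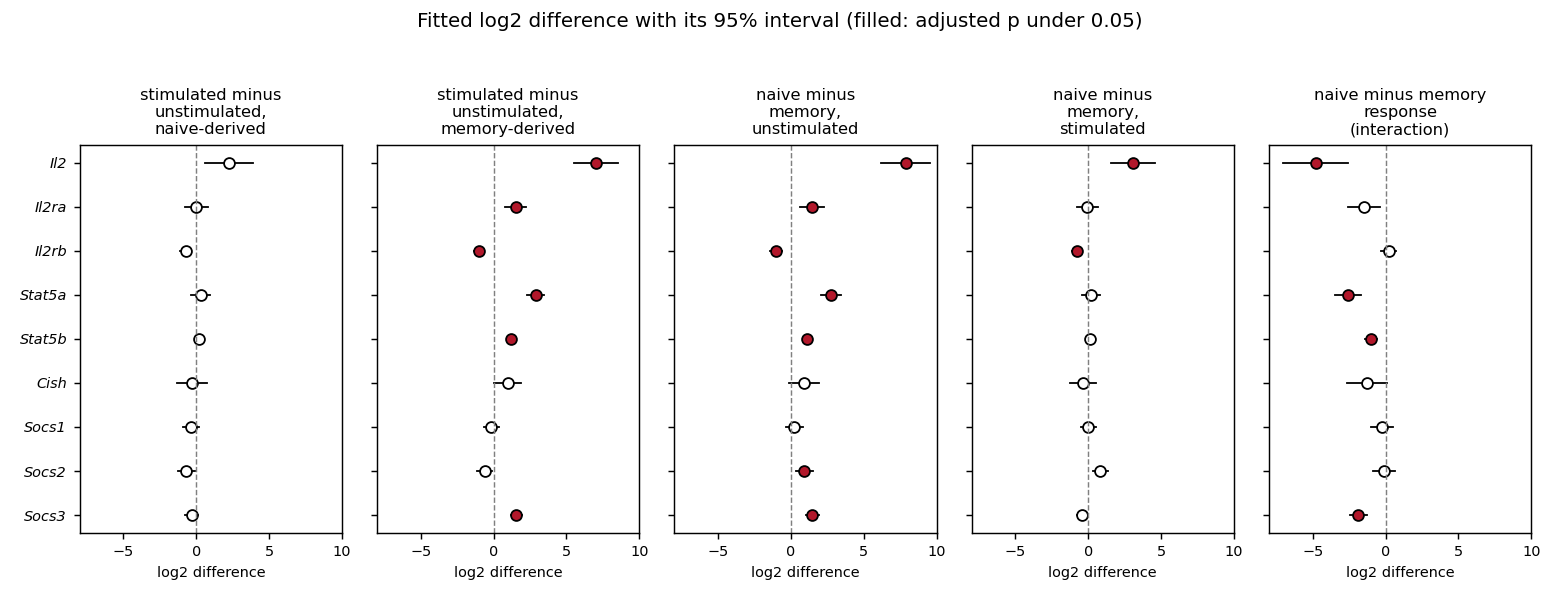
Fitted log2 difference of each member in 5 comparisons, with 95% intervals from limma; filled points passed the adjusted threshold. Stat5a lay at 0.29 for stimulation in naive-derived cells and at 2.88 for stimulation in memory-derived cells, while Il2rb lay below 0 in both.

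The feedback inhibitors did not move as one. Cish, a classical STAT5 target whose protein CIS binds the activated receptor, had a level of 8.63, 8.37 and 8.63 on naive-derived stimulated, 9.02 and 8.66 on naive-derived unstimulated, 8.96, 8.89 and 8.87 on memory-derived stimulated and 8.28, 8.89 and 6.69 on memory-derived unstimulated arrays (chromosome 9, 107296659 to 107302784). The memory-derived unstimulated arrays spread widely and overlapped with every other group. Stimulated minus unstimulated was -0.30 in naive-derived cells (95% interval -1.33 to 0.73, limma adjusted p = 0.913) and 0.95 in memory-derived cells (SE 0.417, 95% interval 0.03 to 1.87, adjusted p = 0.109), and neither passed. Without memory-derived unstimulated array 2, Cish passed for stimulation in memory-derived cells (1.42, adjusted p = 0.0137) and for origin without stimulation (1.36, adjusted p = 0.0291). The promoters of Cish (chr9:107296409-107296678, plus strand) and Socs3 (chr11:117969347-117969616, minus strand) are shown because they were the members whose windows held the letters TTCNNNGAA, the palindrome that STAT proteins bind. They are RefSeq's GRCm38.p6 windows around a transcript start, ending 20 bases after it, with those letters in capitals.
Cish promoter: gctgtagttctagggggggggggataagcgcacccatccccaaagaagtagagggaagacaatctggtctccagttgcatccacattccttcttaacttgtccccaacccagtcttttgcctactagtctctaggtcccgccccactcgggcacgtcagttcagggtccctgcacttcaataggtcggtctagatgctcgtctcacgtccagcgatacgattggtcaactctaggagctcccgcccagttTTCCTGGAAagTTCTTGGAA
Socs3 promoter: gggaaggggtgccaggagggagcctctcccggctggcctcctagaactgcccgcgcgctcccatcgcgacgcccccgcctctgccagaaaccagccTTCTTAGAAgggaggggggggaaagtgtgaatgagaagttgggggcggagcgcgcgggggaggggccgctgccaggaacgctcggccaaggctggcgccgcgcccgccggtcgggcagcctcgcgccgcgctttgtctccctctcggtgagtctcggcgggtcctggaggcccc
Cish held 2 matches, at bases 1 to 9 and 12 to 20 from its start, and Socs3 held 1, at -154 to -146. Of 32851 windows of 300 bases searched on both strands, 8.3% held the motif and 0.457% held it at least 2 times. Windows were found for 8 of the 10 members, and the other members with windows held no match in them. The letters TGANTCA, which AP-1 proteins bind, were in 7.81% of all windows and in none of the members' windows. A match describes letters and not binding.

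Socs3, which blocks JAK kinases at receptors of the interleukin 6 type and is also induced by STAT5, was low in the same group as Stat5a (chromosome 11, 117966079 to 117970336). Its level was 3.88, 3.93 and 3.64 on naive-derived stimulated, 4.31 and 3.98 on naive-derived unstimulated, 4.49, 4.11 and 4.04 on memory-derived stimulated and 2.52, 2.93 and 2.55 on memory-derived unstimulated arrays. The memory-derived unstimulated arrays lay below all others, and within naive-derived cells the stimulated arrays lay below the unstimulated ones. Socs3 rose by 1.55 with stimulation in memory-derived cells (SE 0.172, limma adjusted p = 0.000192) and was higher by 1.48 in naive-derived than in memory-derived unstimulated cells (SE 0.193, adjusted p = 0.000571). In naive-derived cells stimulated minus unstimulated was -0.33 (95% interval -0.75 to 0.10, adjusted p = 0.697), and this did not pass. All 3 probe sets of Socs3 passed in the first 2 of these comparisons, with stimulation differences in memory-derived cells of 1.55, 1.38 and 0.88. For stimulation in naive-derived cells the other probe sets differed by -0.39 and -0.067, and their stimulated and unstimulated arrays overlapped.

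Socs2, an inhibitor known in mice for restraining growth hormone signalling and itself a STAT5 target, passed for origin and for neither stimulation. Its level was 4.40, 4.42 and 4.17 on naive-derived stimulated, 4.94 and 5.10 on naive-derived unstimulated, 3.45, 3.38 and 3.68 on memory-derived stimulated and 3.78, 4.75 and 3.78 on memory-derived unstimulated arrays (chromosome 10, 95383903 to 95417321). Naive-derived unstimulated arrays were the highest, memory-derived stimulated arrays the lowest, and stimulated arrays lay below unstimulated ones of the same origin. Socs2 was higher by 0.92 in naive-derived than in memory-derived unstimulated cells (SE 0.26, limma adjusted p = 0.0248). That call was lost when memory-derived unstimulated array 1 or 3 or naive-derived unstimulated array 1 or 2 was left out, with differences of 0.75 to 1.00 and adjusted p of 0.0757 to 0.142. It was also lost with the median over probe sets (0.39, adjusted p = 0.145), with only these 2 groups fitted (adjusted p = 0.0849) and with experiments 1 and 2 only (adjusted p = 0.112). In stimulated cells the origin difference was 0.83 (SE 0.232, 95% interval 0.32 to 1.34, limma adjusted p = 0.0832) and did not pass. It passed without memory-derived unstimulated array 2 (adjusted p = 0.00768). It also passed with only the 2 stimulated groups fitted (adjusted p = 0.0238) and with the intensity trend and robust prior (adjusted p = 0.0412). The stimulated minus unstimulated difference was -0.69 in naive-derived cells (95% interval -1.26 to -0.11, adjusted p = 0.522) and -0.60 in memory-derived cells (95% interval -1.11 to -0.09, adjusted p = 0.0734), and neither passed. Without memory-derived unstimulated array 1 the second was -0.76 and passed (adjusted p = 0.0463). The second also passed with a stricter filter on low signal (adjusted p = 0.0472) and with the intensity trend and robust prior (adjusted p = 0.0445).

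Socs2 was also the member that set naive-derived unstimulated cells apart from memory-derived stimulated cells, a comparison in which 1 of the 9 members passed, on the higher side, and 1.85% of all genes did (0.98% higher, 0.865% lower). The difference was 1.52 (SE 0.26, limma adjusted p = 0.0138), and 104 genes had a larger one. It was lost when memory-derived stimulated array 1 or 2 or naive-derived unstimulated array 1 or 2 was left out, with differences of 1.43 to 1.60 and adjusted p of 0.0508 to 0.138. The second probe set of Socs2 read 4.16, 4.22 and 4.00 on naive-derived stimulated, 4.87 and 4.80 on naive-derived unstimulated, 3.62, 3.56 and 3.47 on memory-derived stimulated and 3.63, 4.52 and 3.85 on memory-derived unstimulated arrays, and differed by 1.28 in this comparison (adjusted p = 0.0163 over single probe sets). With the median over all its probe sets the difference was 0.36 and did not pass (adjusted p = 0.483). The other 4 probe sets of Socs2 read 0.47 to 3.29; 2 of them passed the filter, and neither was called in any comparison. For the other 8 members the ranges of naive-derived unstimulated and memory-derived stimulated arrays met, with differences between -0.11 and 0.82.

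Socs1, a strong inhibitor of JAK kinases, passed in none of the 6 comparisons (chromosome 16, 10783808 to 10785536). Its level was 3.65, 3.66 and 3.92 on naive-derived stimulated, 4.21 and 4.03 on naive-derived unstimulated, 4.09, 3.54 and 3.54 on memory-derived stimulated and 3.81, 4.38 and 3.46 on memory-derived unstimulated arrays. The groups overlapped except that naive-derived stimulated arrays lay below naive-derived unstimulated ones (difference -0.38, 95% interval -0.94 to 0.18, limma adjusted p = 0.748). In memory-derived cells stimulated minus unstimulated was -0.16 (95% interval -0.66 to 0.34, adjusted p = 0.646).

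Ordered by mean level, the groups ran differently for the members, and few neighbours in an order were told apart. For Il2 the order from high to low was naive-derived stimulated (13.86 ± 1.06), naive-derived unstimulated (11.61 ± 0.805), memory-derived stimulated (10.79 ± 0.694) and memory-derived unstimulated (3.74 ± 1.33; SD, n = 3, 2, 3 and 3), and the last step alone passed the test. For Il2rb it was the reverse, memory-derived unstimulated (8.57 ± 0.157), memory-derived stimulated (7.59 ± 0.0448), naive-derived unstimulated (7.54 ± 0.39) and naive-derived stimulated (6.80 ± 0.123), and the first step alone passed. Stat5a and Stat5b were highest in naive-derived stimulated and then memory-derived stimulated and naive-derived unstimulated cells, whose ranges met from 1 neighbour to the next, and only the step to memory-derived unstimulated cells passed. Cish and Socs3 were highest in memory-derived stimulated cells, and Socs2 in naive-derived unstimulated cells. The orders of Il2ra and Socs1 changed when arrays were scaled to the hybridization controls, and the other 7 orders did not.

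**Figure D3:**
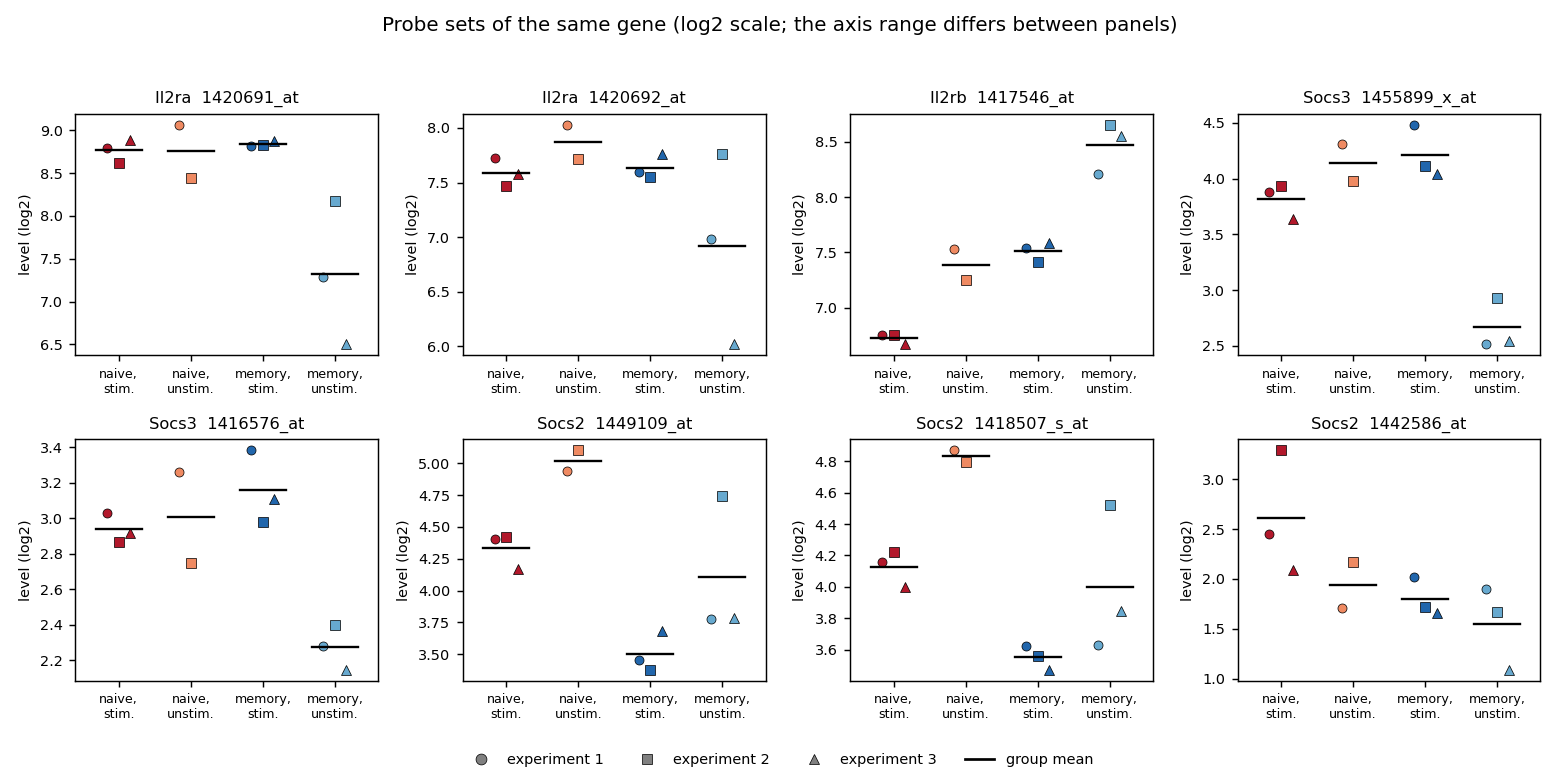
Log2 level on every array for 8 probe sets of Il2ra, Il2rb, Socs3 and Socs2 (1 point per array, bars at the group mean), with the groups ordered naive-derived stimulated, naive-derived unstimulated, memory-derived stimulated and memory-derived unstimulated. The shown sets of Socs3 were lowest on memory-derived unstimulated arrays, while the second set of Il2ra had memory-derived unstimulated array 2 at 7.76, among the arrays of the other groups.

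Whether the response to the final stimulation differed between origins was tested as the interaction, the naive-derived response minus the memory-derived one. It was -4.80 for Il2 (SE 1.02, limma adjusted p = 0.0411), -2.59 for Stat5a (SE 0.415, adjusted p = 0.0226), -0.99 for Stat5b (SE 0.179, adjusted p = 0.0268) and -1.87 for Socs3 (SE 0.258, adjusted p = 0.017). All 4 were negative: the naive-derived response was below the memory-derived one. For Socs3 the third probe set gave -0.95 and did not pass (adjusted p = 0.0683). With the experiment as a replicate block, 1 of the 4 still passed, and calls over all genes fell from 401 to 26. The adjusted p from limma was then 0.0904 for Il2, 0.0568 for Stat5a and 0.0649 for Stat5b. Il2ra at -1.51 (95% interval -2.61 to -0.41, adjusted p = 0.109) and Cish at -1.26 (95% interval -2.63 to 0.12, adjusted p = 0.255) did not pass, and Il2ra did without memory-derived unstimulated array 2 (-1.93, adjusted p = 0.0142). With arrays scaled to the hybridization controls, 49.0% of all genes called in this comparison were higher, against 59.6% as normalized by the authors.

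Single arrays decided several of these interaction calls. The call of Il2 was lost when any array other than memory-derived unstimulated 2 or 3 was left out, with differences of -5.37 to -4.20 and adjusted p from limma of 0.0554 to 0.154. The call of Stat5a was lost without memory-derived stimulated array 2 or 3, naive-derived stimulated array 2 or naive-derived unstimulated array 1 or 2, with differences of -2.73 to -2.37 and adjusted p of 0.0503 to 0.11. The call of Stat5b was lost without those arrays and also without naive-derived stimulated array 1, with differences of -1.04 to -0.95 and adjusted p of 0.0554 to 0.127. That of Socs3 was lost without naive-derived unstimulated array 1 (-1.71, adjusted p = 0.0893).

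**Figure D4:**
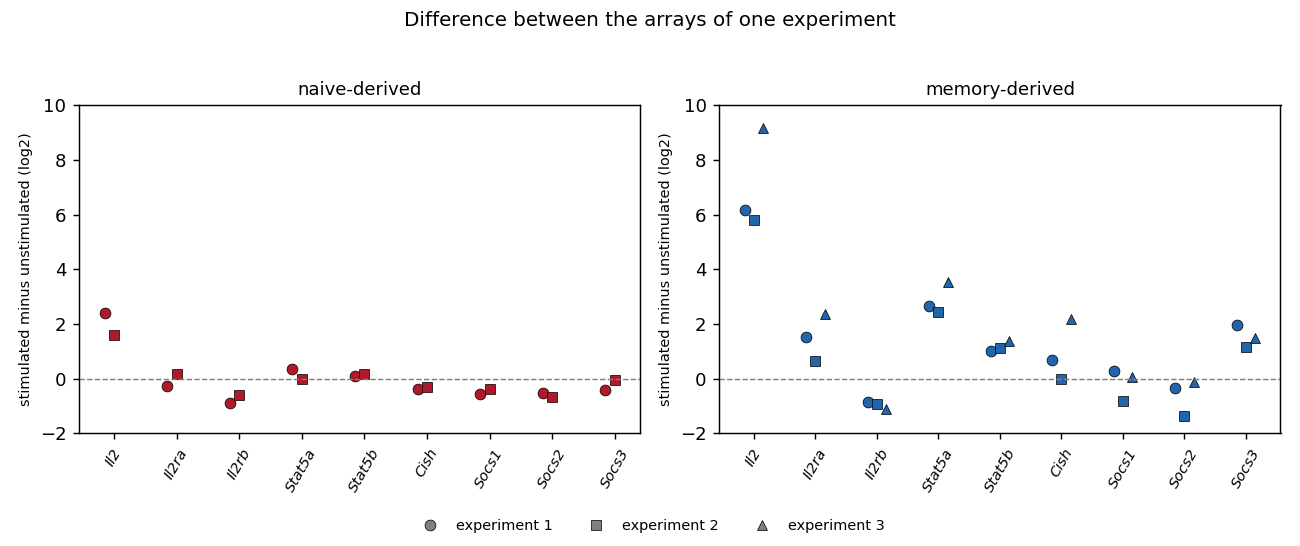
Difference in log2 level between the stimulated and unstimulated array of the same experiment, for each member, in naive-derived cells (experiments 1 and 2) and memory-derived cells (experiments 1, 2 and 3). For Il2 the differences were 2.42 and 1.61 in naive-derived cells and 6.16, 5.81 and 9.18 in memory-derived cells.

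Within single experiments the members called for stimulation in memory-derived cells kept 1 direction there. In naive-derived cells, experiments 1 and 2 gave 0.34 and 0.0033 for Stat5a, -0.89 and -0.58 for Il2rb and -0.53 and -0.68 for Socs2. In memory-derived cells Il2 differed by 6.16, 5.81 and 9.18 in experiments 1, 2 and 3, Stat5a by 2.68, 2.43 and 3.53, and Socs3 by 1.97, 1.18 and 1.49. Il2rb differed by -0.86, -0.94 and -1.13, and Il2ra by 1.53, 0.65 and 2.38. Cish differed by 0.68, 0.0028 and 2.18, so its difference in experiment 2 was close to 0. Among the 3 experiments, the differences of Il2, Il2ra, Stat5a, Stat5b and Cish were highest in experiment 3. Across memory-derived unstimulated arrays, array 3 had the lowest level of 6 of the 9 members and array 2 the highest of 8 of the 9. The share over all genes is not given here. On the first principal component array 3 lay farthest from the other groups (77.4) and array 2 nearest to them (40.3).

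Genes around the circuit were called in both directions. For stimulation in memory-derived cells, where 14.3% of all genes rose and 17.3% fell, 1 of 13 kinases and adaptors rose and 5 fell. Jak2, a kinase of other cytokine receptors, rose by 2.12 (limma adjusted p = 5.78e-05), whereas the interleukin 2 receptor's own kinases fell, Jak1 by 1.13 (adjusted p = 0.00254) and Jak3 by 0.53 (adjusted p = 0.00745). Pik3cd and Pik3r1, a catalytic and a regulatory subunit of PI3 kinase, fell by 1.96 and by 1.41. Of 15 other SOCS genes and inhibitors, 3 rose and 4 fell: Socs6 rose by 0.97, and the phosphatase Ptpn6 (SHP-1) and the STAT inhibitor Pias3 fell by 2.05 and by 1.24. The median difference was -0.18 over the kinases and adaptors and -0.043 over the other inhibitors, against 0.0025 over all genes.

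Receptors that share the gamma chain were also mixed. With stimulation in memory-derived cells, Il15ra and Il21r rose by 0.57 (limma adjusted p = 0.00919) and by 0.73 (adjusted p = 0.0211), Il7r fell by 0.82 (adjusted p = 0.0417), and Il4ra did not pass (0.48, adjusted p = 0.0889). Il15ra, the chain that presents interleukin 15 to Il2rb, was higher in naive-derived than in memory-derived cells by 1.08 without stimulation (adjusted p = 0.000907) and by 0.76 with it (adjusted p = 0.0117). Il7r, the receptor of the survival cytokine interleukin 7, was lower in naive-derived unstimulated cells, with a difference of -1.40 (adjusted p = 0.00763). Of 4 other gamma chain cytokines, Il21 alone was called in any comparison, for origin without stimulation and with it. Its level was over the filter level on 5 of 5 naive-derived and 1 of 6 memory-derived arrays. It was thus tested because of the naive-derived ones, so no size or p is given and no reading is made from its calls.

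Of 22 genes known to respond to interleukin 2 or STAT5, 0 passed for stimulation in naive-derived cells (median -0.14, against 0.0072 over all genes), and in memory-derived cells 8 rose and 4 fell (median 0.63, against 0.0025 over all genes). Over all genes, 0.0135% passed in naive-derived cells, and 14.3% rose and 17.3% fell in memory-derived cells. Ccnd2, which encodes cyclin D2 and is a STAT5 target, rose in memory-derived cells by 1.60 (limma adjusted p = 0.00189) and Myc by 1.35 (adjusted p = 0.0332), while the cell cycle inhibitor Cdkn1b and the cyclin gene Ccnd3 fell by 2.22 and by 2.12. Pim1 at 0.62 (adjusted p = 0.174), Bcl2 at -0.47 (adjusted p = 0.0787), Bcl6 at -0.60 (adjusted p = 0.272) and Prdm1 at 0.30 (adjusted p = 0.409) did not pass. Between origins without stimulation, where 10.9% of all genes were higher and 14.9% lower in naive-derived cells, 8 of the 22 were higher and 4 lower, among them Prdm1, which encodes the effector regulator Blimp-1, at 1.04 (adjusted p = 0.0194). Tnfrsf4, the costimulatory receptor OX40, was higher in naive-derived cells by 4.67 without stimulation (adjusted p = 1.27e-05) and by 2.66 with it (adjusted p = 0.000246), and by 2.20 in naive-derived unstimulated over memory-derived stimulated cells (adjusted p = 0.00259).

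Of 21 regulators of Il2 transcription tested, 0 passed for stimulation in naive-derived cells, and in memory-derived cells 7 rose and 3 fell, where 0.0135% of all genes passed in naive-derived cells and 14.3% rose and 17.3% fell in memory-derived cells. In the memory-derived cells Fosl1, an AP-1 subunit, rose by 2.72 (limma adjusted p = 0.000297), Rel, the NF-kappaB subunit c-Rel, by 2.40 (adjusted p = 0.000151), and Nfatc3, an NFAT family member, fell by 1.59 (adjusted p = 0.000491). Without stimulation 6 were higher and 2 lower in naive-derived cells (10.9% and 14.9% of all genes), with Rel at 2.08, Fosl1 at 1.91 and Pou2f2 at 1.86. The interaction of stimulation and origin passed for 3 of the 21 (2.71% of all genes), each close to the threshold. It was -2.19 for Fosl1 (limma adjusted p = 0.0457), -1.70 for Rel (adjusted p = 0.0434) and -1.23 for Egr2 (adjusted p = 0.0496). With the experiment as a replicate block, interaction calls over all genes fell from 401 to 26. Whether these 3 calls held then is not given here. Origin in stimulated cells gave 0 of 21, where 3.7% of all genes passed.

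The genes whose level across the 11 arrays was most like that of a member were listed by Pearson's r, as a description: the 11 arrays share 4 groups, and a gene high in the same groups scores high. For Il2 they were Slc41a1 (0.994), Plscr1 (0.994), Mapk6 (0.990), Chd1 (0.989) and Ndrg1 (0.989), with the next gene at 0.989. For Stat5a the closest was Sema7a (0.995), for Il2ra Dnajc21 (0.988), for Cish Ccdc115 (0.979), for Socs3 Prdm4 (0.979) and for Socs1 Snhg11 (0.904). For Socs2 they were Cd8a (0.954), Agpat3 (0.936), Sgk3 (0.898), Cnksr3 (0.887) and Cd247 (0.880). With the median over a gene's probe sets in place of the brightest one, 1 of the 5 genes was shared for Il2 and 0 of 5 for Socs2. Among the members, Stat5a and Stat5b correlated at 0.980, Il2 and Stat5b at 0.970, and Il2 and Il2rb at -0.921.

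**Figure D5:**
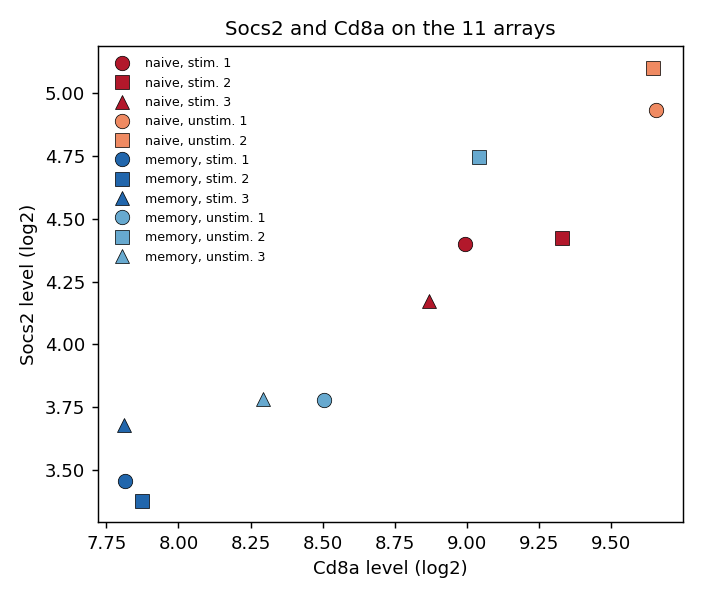
Log2 level of Socs2 against that of Cd8a, the CD8 coreceptor gene whose pattern was most like it, with 1 point for each of the 11 arrays. Memory-derived stimulated arrays lie lowest on both axes, with Socs2 at 3.38 to 3.68, and naive-derived unstimulated arrays highest, with Socs2 at 4.94 and 5.10.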

How the data were processed

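RNA from 11 samples was measured on Affymetrix 3' arrays. The software listed, per the submitters' processing notes, is Affymetrix Expression Console; the summarization method is not given in the sources used here. The deposited values are taken as log10 signals: for each increase of 1 in the log10 of their concentration the hybridization controls gained 0.944 to 1.77, and a log2 scale would give 3.32, so the base is an inference. All 11 columns held the same sorted values, so the deposited log10 table had been quantile normalized, and array intensity tells nothing of depth; the number of arrays limits precision. Values were multiplied by 3.32 to give log2. Of 45101 probe sets, 64 controls, 932 with several symbols and 9160 not listed in the annotation were left out. Each gene was represented by its brightest single-symbol probe set, and the 14795 genes with signal over the 40th percentile (1.54) in at least 2 columns were tested.

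A linear model of the 4 groups over all 11 arrays was fitted with limma 3.58.1 in R 4.3.3 (7 residual and 3.86 prior degrees of freedom). Tests are two-sided, with Benjamini-Hochberg adjusted p-values over all genes tested; SE is the standard error of a log2 difference and intervals are 95%. The method was tested on simulated data with independent noise, for stimulation in memory-derived cells only. The simulation did not cover the interaction, the other comparisons or shared cultures. The replicate number in the titles equals the number after the prefix exp in the labels' descriptions, which is read as a shared experiment and so as pairing the arrays. Deviations from group means correlated at -0.0716 to 0.112 within an experiment (median 0.0341, 15 pairs) and at -0.131 to 0.112 between experiments (median -0.00361, 30 pairs); the replicate block was an alternative. Other alternatives changed the filter, a floor, the scaling, the choice of probe set, the block, the groups fitted, the prior and single arrays. Gene names follow the array's annotation table, promoter sequences and gene positions RefSeq's GRCm38.p6; no genome of the authors' build was used. Stimulated and unstimulated cells of 1 origin and experiment may share a culture, and p-values measure the spread between these samples. The members, lists and comparisons were chosen with earlier results of these data known. Named genes are all members, 12 fixed pathway genes (Jak1, Jak3, Il15ra, Il21r, Il4ra, Il7r, Prdm1, Bcl6, Pim1, Myc, Bcl2 and Ccnd2), the 3 largest called differences per list and comparison, and the 5 genes most like a member. Figures were drawn with matplotlib 3.10.9 in Python 3.11.15.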

Additional observations from a re-analysis of the deposited data

Results flagged for a closer look

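By limma's test of the difference itself, the response to the final stimulation differed between origins for 4 members, where 2.71% of all genes passed. They were Il2 (-4.80), Stat5a (-2.59), Stat5b (-0.99) and Socs3 (-1.87), each the naive-derived minus the memory-derived response on the log2 scale. The count was 1 with the experiment as a replicate block and 1 with experiments 1 and 2 only. With 2 or 3 arrays a group, single arrays were not tested as outliers.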

How the results depend on the processing

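Over 436 alternative values of the 20 called results, 376 stayed past the threshold, 60 fell short and 0 turned direction; of 743 values of the 34 results not called, 9 passed. The count of members called for origin in stimulated cells was 2, against 1 with the replicate block, 0 with experiments 1 and 2 only and 0 to 3 when 1 array was left out. For the interaction it was 4, against 1 with the replicate block, 1 with experiments 1 and 2 only and 0 to 5 when 1 array was left out. For naive-derived unstimulated against memory-derived stimulated cells it was 1, against 0 with the median over probe sets and 0 to 1 when 1 array was left out. Over all genes, calls for origin in stimulated cells went from 548 to 508 with the replicate block and to 258 with experiments 1 and 2 only. For the interaction they went from 401 to 26 and to 49. For naive-derived unstimulated against memory-derived stimulated cells, the median over probe sets gave 300 of 13614 genes, against 273 of 14795. The member counts for the other 3 comparisons stayed within 1.5 times. The replicate block (experiment as a term) ended no call beyond those given in the report. With scaling to the hybridization controls, Stat5b's interaction had an adjusted p of 0.072 (range over its alternatives 0.00602 to 0.127). Il2's interaction was lost with no filter (adjusted p = 0.0543), with the intensity trend and robust prior (0.0501) and with experiments 1 and 2 only (0.0967), where Stat5b (0.0752) and Socs3 (0.0591) also lost theirs.

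Some uncalled differences changed sign. Socs2 with the median over probe sets was 0.12 for stimulation in naive-derived cells (-0.69 as reported), 0.030 in memory-derived cells (-0.60 as reported) and 0.086 for the interaction, which was 0.24 with experiments 1 and 2 only. Il2ra for stimulation in naive-derived cells was -0.040 with control scaling, -0.14 with the median over probe sets and -0.049 with experiments 1 and 2 only; against memory-derived stimulated cells, naive-derived unstimulated cells differed by 0.077 with the median. Socs1 for origin in stimulated cells was -0.087 with control scaling and -0.16 with experiments 1 and 2 only. With 1 array left out, the ranges that crossed 0 were -0.37 to 0.085 (Socs1, stimulation in memory-derived cells), -0.30 to 0.32 (Il2ra, stimulation in naive-derived cells), -0.13 to 0.0052 (Il2ra) and -0.074 to 0.20 (Socs1) for origin in stimulated cells, -0.041 to 0.51 (Il2rb) and -0.41 to 0.074 (Socs2) for the interaction. For naive-derived unstimulated against memory-derived stimulated cells they were -0.40 to 0.23 (Il2ra), -0.33 to 0.23 (Il2rb), -0.25 to 0.030 (Stat5a), -0.24 to 0.11 (Cish) and -0.23 to 0.095 (Socs3). The causes were not tested.

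Genes called in all ranged over the alternatives from 0 to 13 (2 as reported) for stimulation in naive-derived cells, 2755 to 5108 (4675) in memory-derived cells, 1843 to 4392 (3819) and 258 to 749 (548) for origin without and with stimulation, 0 to 1505 (401) for the interaction and 92 to 404 (273) for naive-derived unstimulated against memory-derived stimulated cells. Control scaling shifted the median of all genes by -0.104 for origin in stimulated cells, where 31.1% of the calls were then higher, against 45.6%. A lone naive-derived unstimulated array, left when the other is dropped, is assumed to vary like the other groups. Il2 (2.32) and Socs3 (2.52) had their lowest levels, on memory-derived unstimulated arrays, nearest the filter level of 1.54.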
